A study of Mus musculus with 7 samples.

Results

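Choroid plexus epithelial nuclei made up 679 of the 47621 nuclei (1.43%) that passed the filters in a single-nucleus RNA-seq dataset of the mouse hippocampus. A nucleus was taken as a member when its raw transcripts held at least 1 copy of Otx2os1, when Htr2c, Otx2os1, Clic6, Kl and Sulf1 together gave at least 0.5% of its transcripts, and when at least 3 of these 5 genes were detected. The members were thus chosen by the measured counts of these 5 genes, whose levels are given as a description only. They stayed in the tables of all genes that were fitted between groups, and no test of them is reported. The tissue came from Arctic48 mice, which carry a human APP transgene with the Indiana, Swedish and Arctic mutations and were hemizygous (Arc), and from mice of the same cross without the transgene (WT). The line was made on a C57BL6/J background. Mice of each genotype drank either plain water (veh) or water with 20 µg/ml PMX205, a cyclic peptide antagonist of the complement receptor C5aR1, for 12 weeks by the labels (the study's own text describes a shorter span), and all were 10 months old. The 4 groups (Arc-PMX, Arc-veh, WT-PMX, WT-veh) each had 6 single-nucleus wells of the first barcoding round (F1 to F3 from females, M1 to M3 from males). Each well held nuclei from the hippocampus of 1 mouse, so the well is the replicate. The sources used here do not name the promoter of the transgene, and 1 WT sample is described by the study as having been left out because its expression was that of an Arctic mouse, without a well being named. All 24 wells were kept with the group of their label. Shares were also computed without the well labelled WT-veh F2, since earlier results of these data had put microglial genes of the single-cell well of that name in the range of Arc. In the single-nucleus data Gfap, which marks reactive astrocytes, was at 7.55 CPM in that well (counts scaled to 1000000 transcripts, nuclei other than members), between the 3.31 and 13.2 CPM of the other 11 WT wells and below the 38.3 to 143 CPM of the 12 Arc wells.

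The choroid plexus is a fringe of epithelium over a vascular stroma that hangs into the ventricles, next to the hippocampal fimbria. Its epithelial cells secrete cerebrospinal fluid by moving sodium, chloride and bicarbonate across tight junctions, supply the fluid with carriers such as transthyretin and with folate, and express the serotonin receptor Htr2c and the anti-ageing protein Klotho (Kl). The ependymal cells that line the rest of the ventricle share a lineage with them but carry tufts of beating cilia. The plexus itself is not part of the hippocampus.

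The members had a median of 3601 transcripts (501 to 34006) and 1950 genes per nucleus, against a median of 4240 transcripts in the 46942 other nuclei. The 5 genes of the rule gave a median of 2.28% of a member's transcripts (0.501% to 5.12%), and 471 members had all 5. Htr2c contributed 68.4% of this sum, Otx2os1 14.6%, Sulf1 10.9%, Clic6 3.05% and Kl 2.99%. Of the members, 10 (1.47%) had 1% or more mitochondrial transcripts and 36 (5.30%) were scored as doublets, against 2.69% of all nuclei. The 46 members with a sum between 0.5% and 1% had a median of 8852.5 transcripts, 801 CPM of Ttr, which encodes transthyretin, and 8072 CPM of 8 neuronal marker genes together. The 63 nuclei just outside the rule, between 0.2% and 0.5%, had a median of 9731 transcripts, 231 CPM of Ttr and 17478 CPM of the neuronal genes. In the 633 members at 1% or more the corresponding levels were 2499 CPM and 772 CPM. The nuclei next to the threshold were thus deep and held more neuronal transcripts than the bulk of the members, and each gene comparison between groups was also run without them. Across the 7 sublibraries the members numbered 82 to 122, and 127 members had a barcode that also occurred among the nuclei of another sublibrary. Of these, 2 members of different sublibraries shared the same barcode, so the 679 members had 678 distinct barcodes.

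The members were very unevenly spread over the wells. In WT-veh the wells held 16, 0, 22, 77, 138 and 0 members (F1 to F3, then M1 to M3). In WT-PMX they held 0, 49, 0, 0, 110 and 1. In Arc-veh the numbers were 34, 44, 68, 0, 3 and 32. In Arc-PMX they were 3, 54, 1, 26, 0 and 1. The wells thus fell apart into 12 with 16 to 138 members, which together held 670, and 12 with at most 3, which together held 9. Of the 12 wells with at least 16 members, 8 were from mice on water and 4 from mice on PMX205, and 7 were from females. Well WT-veh M2 had the highest share, 5.84% of its nuclei (95% exact binomial interval 4.92% to 6.86%). Well WT-veh F2 had 0 of 2568 nuclei, which allows a share of up to 0.117%. These intervals and limits cover counting error only. Ependymal-like nuclei (821 in all, taken by 7 genes of motile cilia) were found in every well, 8 to 66 per well, and the 12 wells with at most 3 members also had 8 to 66. They are part of the other nuclei wherever members are set against other nuclei.

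**Figure D1:**
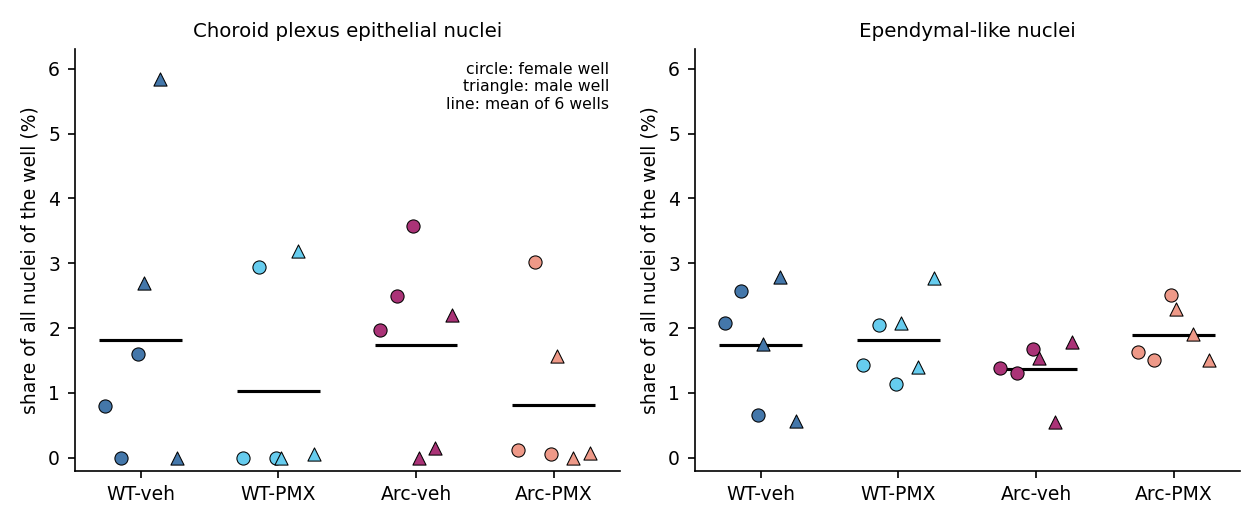
Share of choroid plexus epithelial nuclei (left) and of ependymal-like nuclei (right) among all nuclei of each well, in percent, by group; circles are female wells, triangles male wells and lines the mean of 6 wells. Choroid plexus shares sit near 0 in 12 wells and between 0.794% and 5.84% in the other 12, while every well has ependymal-like nuclei.

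Whether the share of choroid plexus nuclei differed with genotype or PMX205 was tested over wells. The share was 1.82% ± 2.22 (SD, n = 6 wells) in WT-veh, with a lowest, median and highest well of 0%, 1.20% and 5.84%. It was 1.03% ± 1.58 in WT-PMX (0%, 0.0315% and 3.19%), 1.73% ± 1.40 in Arc-veh (0%, 2.08% and 3.58%) and 0.808% ± 1.24 in Arc-PMX (0%, 0.0941% and 3.03%). The 4 groups overlapped over nearly their whole range, and each held at least 1 well with no member. Arc-veh minus WT-veh was −0.0914 percentage points (two-sided exact permutation test, p = 0.935). Arc-PMX minus Arc-veh was −0.924 (exact p = 0.258) and WT-PMX minus WT-veh was −0.790 (exact p = 0.535). The PMX205 effect in Arc minus that in WT was −0.134 (permutation p = 0.924) and female minus male was 0.0678 (permutation p = 0.921). All 5 values had an adjusted p of 0.935, and none was larger than the spread between wells. The direction of several of these differences rested on single wells: without WT-veh M2, Arc-veh minus WT-veh was 0.711. In females alone it was 1.88, with the Arc-veh wells at 1.96%, 2.50% and 3.58% and the WT-veh wells at 0.794%, 0% and 1.61%. These 3 and 3 wells did not overlap (exact permutation p = 0.100, the smallest that 3 against 3 can give, adjusted p = 0.400). The WT-veh well at 0% was F2, without which shares were also computed. In males alone the difference was below 0, with Arc-veh wells at 0%, 0.148% and 2.20% and WT-veh wells at 2.70%, 5.84% and 0%, which overlapped.

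The identity given by the label was checked on 8 marker genes of choroid plexus epithelium that the rule did not use. All of the genes below were measured in the same nuclei that the 5 genes had chosen, so the calls against other nuclei describe the members and are no independent test of what they are. Ttr had 1310, 2027 and 2851 CPM (lowest, median and highest of the 12 wells with at least 5 members) in the members and 0.551, 1.80 and 4.71 CPM in the other nuclei of the same wells. The ranges lay far apart in every well, with a log2 fold change of 9.07 (SE 0.25). A Ttr transcript was present in 97.1% of the members and in 0.652% of all other nuclei. After thinning to 1000 transcripts per nucleus, the shares were 85.8% of 661 members and 0.173% of 39247 other nuclei. In the other nuclei Ttr was 0.551 to 4.71 CPM (median 1.80) in wells with members and had a median of 0.622 CPM in the 12 wells with few or none.

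The other markers behaved alike. Enpp2, which encodes the secreted enzyme autotaxin, had 6194, 7715 and 9761 CPM in the members (log2 fold change 5.87, SE 0.17). Slc4a5, a sodium bicarbonate cotransporter of the epithelium, had 731, 880 and 1237 CPM (9.16, SE 0.24). Prlr, the prolactin receptor, had 677, 927 and 1453 CPM (5.12, SE 0.12). In these genes, as in Ttr, the lowest well of the members was above the highest well of the other nuclei. The transcription factor gene Otx2 had 68.7, 252 and 322 CPM (7.47, SE 0.21), and part of the annotated gene lies opposite Otx2os1 (mm10 chr14:48657677-48673819 on the minus strand against chr14:48668708-48870683 on the plus strand), so reads of the pair cannot be told apart here if counting ignored strand. Folr1, the folate receptor that loads the fluid with folate, had 94.5, 194 and 257 CPM (7.86, SE 0.19), and Kcnj13, a potassium channel, had 111, 164 and 398 CPM (7.24, SE 0.16). Sostdc1, a secreted inhibitor of Wnt and BMP signalling, had too few counts to be tested (0 to 33.4 CPM, with a transcript in 8.69% of members and 0.0660% of other nuclei). Of the markers, 7 of 7 tested were higher in the members (median log2 fold change 7.47), where 18.6% of the 12447 genes tested were higher, 51.7% were lower, and the median over all genes was −0.49. A gene nearly absent from other nuclei, such as Ttr, passed the filter on low counts mainly through the members. Counts of higher genes among those tested, here and in the lists below, are therefore a description.

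**Figure D2:**
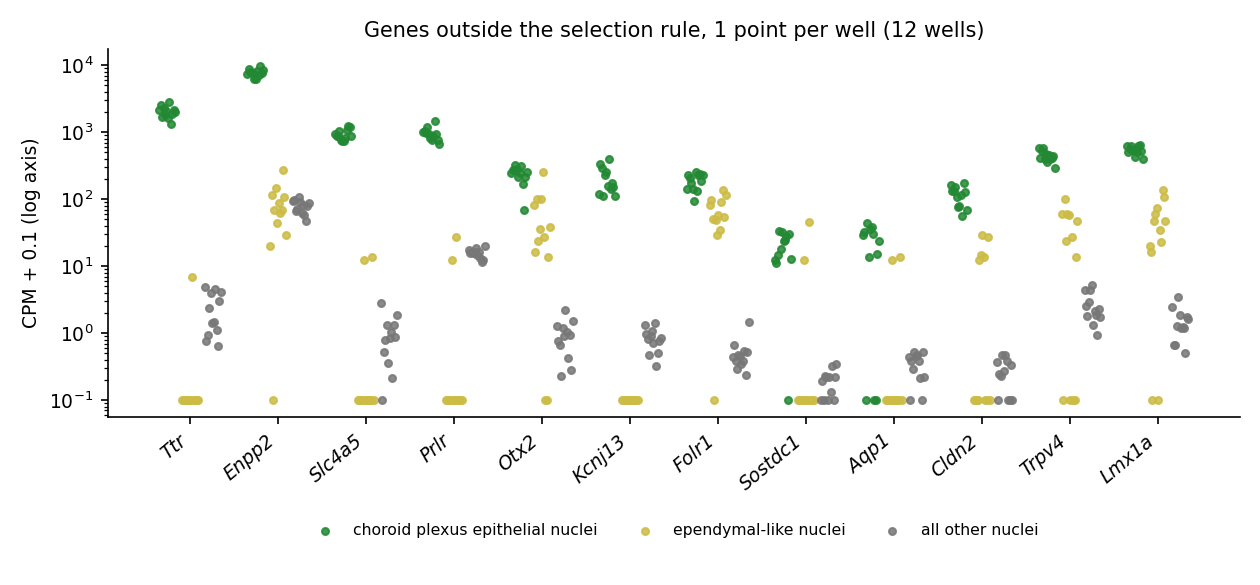
Level of 12 genes that the rule did not use, in CPM plus 0.1 on a log axis, in choroid plexus epithelial nuclei, ependymal-like nuclei and all other nuclei (ependymal-like nuclei included). Each point is 1 of 12 wells. Ttr lies between 1310 and 2851 CPM in the choroid plexus nuclei of every well and below 5 CPM in the other nuclei, while Folr1, Otx2 and Lmx1a are also seen in ependymal-like nuclei.

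Among the rule's own genes, Htr2c, a serotonin receptor gene on the X chromosome, had 11933, 14390 and 18289 CPM over the 12 wells. Otx2os1, a long noncoding RNA, had 2398, 3613 and 5224 CPM. Kl, which encodes Klotho (mm10 chr5:150952607-150993817), had 466, 634 and 854 CPM, and a transcript of it was seen in 81.1% of members. The chloride channel gene Clic6 had 418, 764 and 959 CPM and Sulf1, a sulfatase of heparan sulfate, 1880, 2303 and 4056 CPM. In WT-veh Kl was at 705 ± 116 CPM (SD, n = 4 wells). In Arc-veh it was at 655 ± 161 CPM (n = 4), and the PMX205 wells were at 483 and 694 CPM (WT) and at 545 and 649 CPM (Arc). The 4 groups overlapped in Kl.

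Genes for making cerebrospinal fluid were mostly higher in the members. Of 15 ion pumps, exchangers and channels tested, 12 were higher, 2 lower and 1 was not called (median log2 fold change 2.17). Over all genes tested 18.6% were higher and 51.7% lower. Slc4a10, a sodium-driven bicarbonate transporter of the basolateral membrane, had 2840 ± 641 CPM in the members (SD, n = 12 wells) and 362 CPM in other nuclei. Slc12a2, the NKCC1 cotransporter, had 542 ± 108 against 59.1 CPM, and Trpv4, a calcium channel that responds to osmotic change, 444 ± 86.5 against 2.53 CPM. The carbonic anhydrase gene Car12 had 693 ± 150 against 35.7 CPM (log2 fold change 3.48, SE 0.10), and Car14 was also higher (4.35, SE 0.22). For Atp1b1, a beta subunit of the sodium pump, the difference was small with the scaling factor used (0.25, SE 0.09). The size of such a value depends on the scaling, since the median of all genes was −0.49 with it and 0.24 by library totals. Another beta subunit gene, Atp1b2, and the chloride channel gene Clcn2 were lower, of which Atp1b2 was not called by library totals without a scaling factor (−0.22). The water channel gene Aqp1 had 79 transcripts in 68 of the 679 members and was not tested (0 to 44.5 CPM, against a mean of 0.242 CPM in other nuclei).

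Of 19 transporters of solutes and vitamins tested, 16 were higher (median log2 fold change 2.55), where 18.6% of all genes tested were higher. Slco1c1, which carries thyroxine, had 426 ± 73.3 CPM (2.99, SE 0.12). Slc23a2, which takes up vitamin C, had 792 ± 161 CPM (2.09, SE 0.09), Slc13a4, a sulfate transporter, 321 ± 44.5 CPM (6.63, SE 0.23), and Slc28a3, a nucleoside transporter, 118 ± 31.6 CPM (7.57, SE 0.23). The peptide transporter gene Slc15a2 and the magnesium transporter gene Slc41a2 were lower, of which Slc15a2 was not called by library totals (−0.35).

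Secreted carriers and growth factors gave 8 higher and 2 lower of 11 tested (median 1.19). Beside this list and the tight junctions below, 18.6% of all genes tested were higher and 51.7% lower. Beside Ttr and Enpp2 the higher carriers and factors included Igfbp2 (79.3 to 175 CPM over wells, log2 fold change 5.04, SE 0.18), Igf2 (40.4 ± 16.9 CPM, 4.04, SE 0.27), both of insulin-like growth factor signalling, and Vegfa (138 ± 56.1 CPM, 1.74, SE 0.11). Cst3 and Efemp1 were lower, of which Cst3 was not called by library totals (−0.12). Of 12 genes of tight junctions, 6 had enough counts to be tested. Of these 5 were higher, led by Cldn2, the cation and water channel of leaky epithelia (115 ± 38.1 CPM, 8.39, SE 0.26). The scaffold gene Tjp1 was lower (129 ± 58.3 against 517 CPM, −2.56, SE 0.17).

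Of 14 receptors of hormones and lipoproteins tested, 7 were higher and 4 lower (median 0.32), and by library totals 11 were higher. Over all genes tested 18.6% were higher and 51.7% lower, and by library totals 5078 of 12447 were higher. Prlr and the leptin receptor gene Lepr (156 ± 30.9 against 3.39 CPM, 4.72, SE 0.16) had the largest differences. Lrp2, the megalin receptor, was nearly absent, with 3 transcripts in all members and a mean of 116 CPM in ependymal-like nuclei. Of 11 genes of iron and copper handling, 5 were higher and 3 lower (8 and 2 by library totals), led by the metalloreductase gene Steap2 (227 ± 59.6 CPM, 5.82, SE 0.13) and the copper pump gene Atp7a (235 ± 55.2 CPM, 2.74, SE 0.10). The iron exporter gene Slc40a1 had 0 transcripts in all members, which allows up to 0.975 CPM.

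**Figure D3:**
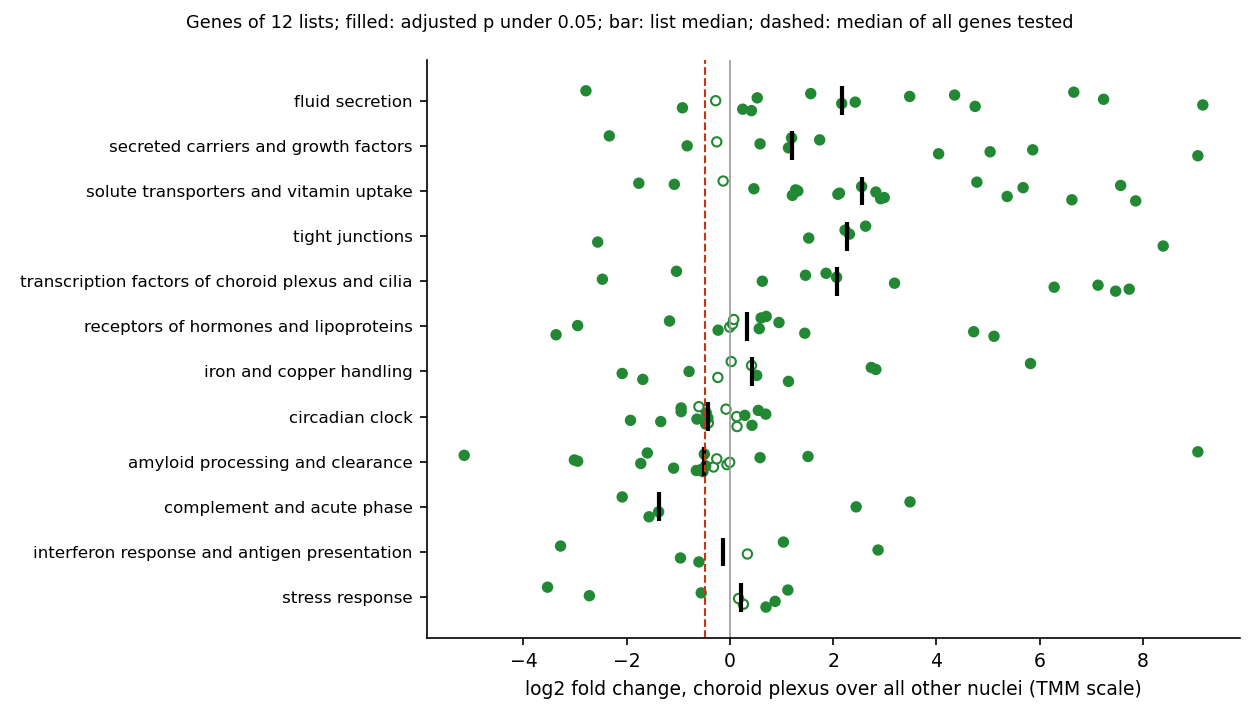
Log2 fold change of each tested gene of 12 lists, choroid plexus epithelial nuclei over all other nuclei of the same wells; filled points have an adjusted p under 0.05, black bars are list medians and the dashed line is the median of all genes tested (−0.49). Fluid secretion, transporters, tight junctions and transcription factors lie mostly to the right of 0, while the clock and amyloid lists sit around the dashed line.

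The transcription factor list gave 9 higher and 2 lower of 11 tested (median 2.07), where 18.6% of all genes tested were higher and 51.7% lower. Lmx1a, which patterns the roof plate from which the plexus arises, had 545 ± 79.2 CPM in the members, 1.40 CPM in other nuclei and 47.3 CPM in ependymal-like nuclei. Gmnc, which starts the programme of multiciliated cells, had 983 ± 206 CPM in the members, against 4.07 and 70.8 CPM. Msx1 was higher too (65.2 ± 20.8 CPM, 6.28, SE 0.23), and Rfx4 (−2.47, SE 0.32) and Meis1 (−1.03, SE 0.30) were lower, of which Meis1 was not called by library totals (−0.32). Genes of regional identity were sparse. Lhx2, of the telencephalon, had 9 transcripts in all members and was lower than in other nuclei. Otx1 had 32 transcripts in 32 members. Hoxa2, Hoxa3, Hoxb2, Hoxb3 and Hoxd3, of the hindbrain, had 0 transcripts in the members, and between 0 and 7 in all other nuclei.

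Genes of motile cilia differed in level in the members, and some were close to 0. Dnah6, an axonemal dynein, had 552, 755 and 1025 CPM in the members (lowest, median and highest of 12 wells), 1985, 2512 and 2903 CPM in ependymal-like nuclei and 5.24, 14.8 and 19.1 CPM in other nuclei. The 3 ranges did not overlap. Hydin, of the central apparatus, had 131, 202 and 275 CPM in the members and 2.89, 11.7 and 17.0 CPM in other nuclei. Ccdc146 (131 ± 32.2 CPM) and Cfap54 (375 ± 78.8 CPM) lay likewise between the other nuclei (5.68 and 57.4 CPM) and the ependymal-like nuclei (1029 and 2393 CPM). By contrast, Dnah12 had 0 counts in the members of 8 of 12 wells and a mean of 6.69 CPM, where ependymal-like nuclei had 3171 CPM. Tmem212 was at 0 in 10 of 12 wells and Spag17 in 4 of 12, with means of 2.61 and 9.78 CPM against 1662 and 1480 CPM. Against other nuclei, which include the ependymal-like nuclei, 6 of 9 cilia genes were higher and 3 (Dnah12, Spag17, Tmem212) were lower. Of the 3, Spag17 was not called by library totals. Of all genes tested 18.6% were higher and 51.7% lower. Whether the 3 were lower than in other nuclei without the ependymal-like ones was not tested. Since 7 of the cilia genes chose the ependymal-like nuclei, their levels in those nuclei are a description only.

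**Figure D4:**
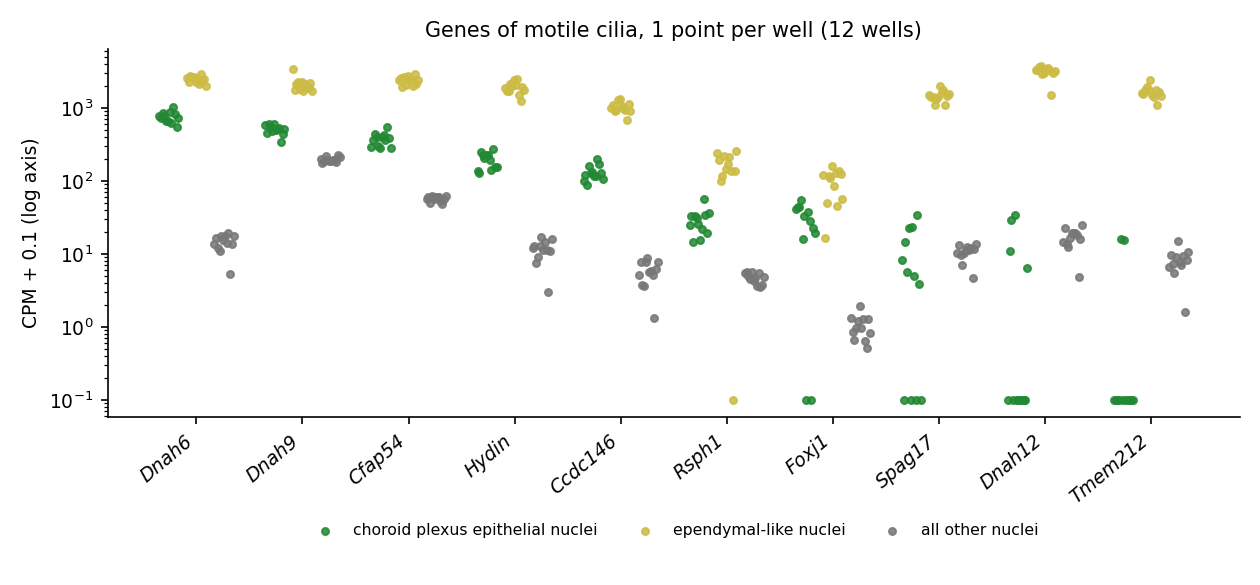
Level of 10 genes of motile cilia, in CPM plus 0.1 on a log axis, in choroid plexus epithelial nuclei, ependymal-like nuclei and all other nuclei (ependymal-like nuclei included). Each point is 1 of 12 wells. Dnah6, Cfap54, Hydin and Ccdc146 are intermediate in the choroid plexus nuclei, while Dnah12 and Tmem212 are at 0 there in 8 and 10 wells.

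Set against ependymal-like nuclei of the same wells across all genes, 38.9% of the 1713 genes tested were higher in the members and 36.5% were lower, with a median of 0.11. The ependymal-like nuclei were shallower (median 1492 transcripts) and 61.8% of them had 1% or more mitochondrial transcripts. All 6 choroid plexus markers tested were higher in the members. The difference was least for Folr1 (log2 fold change 1.43, SE 0.21) and Otx2 (2.24, SE 0.31), which ependymal-like nuclei held at a mean of 66.3 and 58.0 CPM. It was large for Ttr (9.93, SE 0.24), found in 0.365% of ependymal-like nuclei. The highest ranked genes also included Oca2, a melanosomal transporter (578 ± 121 against 1.01 CPM), Col8a1, a short-chain collagen (1299 ± 267 against 2.46 CPM), and Tmem72, Car12, Lef1, Slco1a4, Grb10 and Wdr86, all at 0 in the ependymal-like nuclei of the 12 wells. Lower in the members were Cdhr3 (1.85 against 1132 CPM), Unc5cl (2.39 against 1288 CPM), Wdr49 (3.33 against 1809 CPM), and the cilia genes Ccdc180, Ttc29 and Dnah10, besides Tmem212. Bbox1, of carnitine synthesis, was at 0 in the members and at 314 CPM in ependymal-like nuclei.

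Beyond the lists, the 20 genes with the largest log2 fold change over other nuclei included the antisense RNA Gm14051 (431 ± 168 CPM), P-cadherin Cdh3 (151 ± 82.1 CPM), coagulation factor F5 (384 ± 55.8 CPM), Mfrp, a membrane protein related to frizzled receptors (146 ± 49.9 CPM), and Col4a3, of basement membranes (484 ± 141 CPM). The 20 were ranked among called genes with a mean log2 CPM of at least 6 and a count in the members of every well. In each of these 5 genes the lowest well of the members was above the highest well of the other nuclei. The ranking favours such a gap, so it is a description only. A pair of transcripts of the 20 lies next to Otx2os1 and Otx2 on chromosome 14: Gm534 (mm10 chr14:48870258-48881869 on the minus strand, 131 ± 47.6 CPM) and 4933429O19Rik (chr14:48878586-48887112 on the plus strand, 166 ± 77.4 CPM), both at 0 in the ependymal-like nuclei. Gm534 overlaps the end of Otx2os1 and the start of 4933429O19Rik on the opposite strand, so counts of these 3 genes may share reads if strand was ignored. The genes lowest against other nuclei included the phospholipase gene Plch2 (1.44 ± 2.40 against a median of 76.4 CPM), the potassium channel gene Kcnq5 and the glutamate receptor gene Grm5 (186 ± 133 against a median of 2488 CPM).

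Marker lists of neurons, glia and mural cells had a lower median sum in the members than in other nuclei, and those of endothelium and fibroblasts a higher one. All 8 neuronal genes were lower, and their summed level was 361, 1803 and 3916 CPM (lowest, median and highest well), against 13035 to 18370 CPM in other nuclei. Of these genes Snap25, Rbfox3, Slc17a7 and Gad1 were at 0 in 2, 2, 6 and 6 of 12 wells. Of 7 astrocyte genes 6 were lower, and the list summed to 103 to 2756 CPM (median 450), against 1134 to 2221 CPM in other nuclei. The exception was Slc7a10, an amino acid transporter (284 ± 120 against 12.5 CPM). The 7 oligodendrocyte genes were all lower (183 to 712 CPM, against 500 to 1163 CPM in other nuclei). Of 5 genes of oligodendrocyte precursors 4 were lower (28.5 to 859 CPM, against 1237 to 1436 CPM), and Pdgfra was higher. Of 5 microglial genes tested 4 were lower (0 to 393 CPM, against 58.8 to 260 CPM), with C1qa at 0 in 11 wells and Tmem119 at 0 in 10. In endothelium Flt1, Pecam1 and Adgrl4 were lower, and Mecom (851 ± 180 CPM) and Slco1a4 (276 ± 43.9 CPM) were higher and made up most of a sum of 916 to 1512 CPM, against 37.2 to 319 CPM in other nuclei. Of 4 mural genes 3 were lower (0 to 78.0 CPM, against 14.7 to 114 CPM in other nuclei). Except for precursors, these glial and mural ranges overlapped. For astrocytes and microglia the highest well of the members was above every well of the other nuclei. Of all genes tested 51.7% were lower. By library totals 5 astrocyte genes, 3 microglial genes and 2 mural genes were lower, and 1 of each was higher. The fibroblast list summed to 521 to 862 CPM, against 16.6 to 52.9 CPM in other nuclei. Of its genes Bmp6 was higher (664 ± 103 CPM), as was Col1a2 (0 to 43.6 CPM), Dcn was lower and Lum had 0 transcripts. The part of nuclei or free RNA of these other types in the members' levels was not tested.

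Of the complement and acute phase genes, C5ar1, which encodes the receptor that PMX205 blocks, had 0 transcripts in the 679 members, which allows up to 0.975 CPM, and 81 in all other nuclei. C5ar2, for another receptor of C5a, also had 0 in the members and 121 in all other nuclei. The members held 3078183 transcripts in all, far fewer than the other nuclei. Their 0 therefore does not show either gene to be lower in them. C3 had 1 transcript and Lcn2 had 0. Of 5 genes tested, Cd55 (39.2 ± 26.5 CPM, log2 fold change 2.45, SE 0.25) and Cd59a (40.6 ± 14.6 CPM, 3.49, SE 0.25), which restrain complement on the cell's own surface, were higher, and 3 were lower (2 by library totals), among them C4b and Cp. Of 6 genes of the interferon response tested, Ifi27 and Trim30a were higher and 3 were lower (3 and 1 by library totals), and Ifit1, Ifit3, Isg15 and Ifitm3 had 0 counts in the 12 wells. Beside both lists, 18.6% of all genes tested were higher and 51.7% lower.

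Of 18 genes of amyloid processing and clearance, 3 were higher and 11 lower (median −0.51), close to the median of all genes. By library totals alone 7 were higher and 5 lower. App was 737 ± 83.3 CPM in the members and 627 CPM in other nuclei, a log2 fold change of −0.52 (SE 0.11) that was 0.25 by library totals. Sorl1 (−3.01, SE 0.18) and Abcb1a (−5.15, SE 0.48), an efflux pump of endothelium, were lower, and the cholesterol exporter gene Abca1 was higher (1.51, SE 0.11). In the circadian list 4 of 17 genes were higher and 8 lower, close to the 18.6% and 51.7% of all genes tested. By library totals the split was 9 and 2, where 5078 of all 12447 genes were higher and 3329 lower. Of 8 stress genes 3 were higher and 3 lower (5 and 2 by library totals). Sgk1, a kinase that controls sodium transport, was higher (410 ± 114 against 111 CPM, 1.12, SE 0.11), while Zbtb16 (−3.53, SE 0.22) and Fkbp5 (−2.72, SE 0.18) were lower. All 3 are known to be induced by glucocorticoids. Of 5 transcripts linked to ribosomal RNA 4 were lower and 0 higher, and by library totals 2 were higher and 0 lower.

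Gene expression of the members was then compared between groups over the 12 wells with at least 5 members (4 on water and 2 on PMX205 for each genotype). Their members held 29094 to 809529 transcripts per well. The median depth per nucleus averaged 2448 ± 855 transcripts (SD, n = 4 wells) for WT-veh. For Arc-veh it averaged 4384 ± 1884 (n = 4), a difference that did not pass an exact permutation test (p = 0.143, smallest possible 0.0286). The PMX205 groups had 2210 and 6779.5 (WT-PMX) and 3527 and 4162.5 (Arc-PMX). The sex comparison served as a check of the labels. It called 6 of 5605 genes (0.107%, the 5 genes of the rule among those tested), and 312 had an unadjusted p under 0.05. Xist was 1587 to 2450 CPM in the 7 female wells and 0 to 11.5 CPM in the 5 male wells (log2 fold change 7.77, SE 0.24, edgeR adjusted p = 9.17e-12). The Y-linked genes Uty, Kdm5d, Eif2s3y and Ddx3y were lower in females, and Gm26992 was higher (1.34, SE 0.21, edgeR adjusted p = 0.0129). Gm26992 overlaps Xist in the annotation, on the opposite strand.

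No gene passed the test in any of the other comparisons. Arc-veh minus WT-veh called 0 of 5605 genes by edgeR (0%), with 338 at an unadjusted p under 0.05. Arc-PMX minus Arc-veh called 0 (152 unadjusted), WT-PMX minus WT-veh 0 (113 unadjusted) and the contrast of both PMX205 effects 0 (165 unadjusted). DESeq2 called 0 in each as well. Other settings of edgeR called some genes. In WT-PMX minus WT-veh these were 9 with only the 2 groups compared and 8 with members of at least 1%. For 7 markers outside the rule the largest difference between Arc-veh and WT-veh was that of Kcnj13. Its wells were at 142, 172, 153 and 111 CPM in WT-veh (F1, F3, M1, M2) and at 291, 111, 228 and 258 CPM in Arc-veh (F1, F2, F3, M3). The groups overlapped through Arc-veh F2, and the difference was not called (1.08, SE 0.38, edgeR adjusted p = 0.729). Ttr differed by 0.30 (SE 0.17), Enpp2 by −0.08 (SE 0.13), Folr1 by −0.69 (SE 0.30) and Prlr by 0.11 (SE 0.19), none of them called. The mouse gene App differed by 0.15 (SE 0.18, edgeR adjusted p = 0.954). None of the 12 lists for the functions above had a called gene in any comparison.

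The gene nearest to a call was Egr1, an immediate early gene for a transcription factor induced by growth factors and activity, in WT-PMX minus WT-veh (edgeR adjusted p = 0.0817). It had 0, 0, 7.66 and 0 CPM in WT-veh (F1, F3, M1, M2) and 0 and 189 CPM in WT-PMX (F2, M2). A single well was therefore high, and without WT-PMX M2 the log2 fold change was −0.13. In that well 153 transcripts were found in 64 of 110 members (58.2%), with at most 7 in 1 nucleus, whereas the other nuclei of the same well had 3.63 CPM, within the 0.551 to 7.66 CPM of all 12 wells. Of the Arc-veh wells, M3 had 24 transcripts in 11 of 32 members (87.3 CPM), F1 29.1, F2 0 and F3 18.0 CPM, and Egr1 was also among the 5 genes with the lowest p in Arc-veh minus WT-veh (edgeR adjusted p = 0.287). Other genes had their highest level in WT-PMX M2. Per1, a clock gene that is also induced at once by many signals, had 119 transcripts in 71 members there (147 CPM) and 21.4 to 34.5 CPM in WT-veh (edgeR adjusted p = 0.9997). Sik1, Nr4a1, Dusp1 and Fos, also genes of the immediate early kind and chosen here after their values were seen, had 107 transcripts in 57 members, 78 in 51, 42 in 30 and 23 in 14. For Sik1 this was 132 CPM, against 57.0, 103, 38.3 and 8.58 CPM in WT-veh (F1, F3, M1, M2), where F1 and F3 had 2 and 3 transcripts. Nr4a1 was at 96.4 CPM in WT-PMX M2 and at 0 to 28.5 CPM in WT-veh, and Fos was at 28.4 and at 0 to 4.29 CPM. Dusp1 was at 51.9 CPM and at 0 in the members of WT-PMX F2 and of all WT-veh wells, with 29.1 CPM in Arc-veh M3. Junb had 3 transcripts in WT-PMX M2 (3.71 CPM), below the 7.66 CPM of WT-veh M1. Kcnj13 was at 398 CPM in WT-PMX M2, its highest value, and at 156 CPM in F2 (1.22, SE 0.39, edgeR adjusted p = 0.9997). The members of WT-PMX M2 were also the deepest, with a median of 6779.5 transcripts.

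The other genes with the lowest p in Arc-veh minus WT-veh were Inpp5d (edgeR adjusted p = 0.138), Lrmda (0.152), Gfap and C4b (0.287 each). Inpp5d is a phosphatase gene of microglia and Gfap the intermediate filament gene of reactive astrocytes. Gfap had 0, 0, 0 and 2.14 CPM in WT-veh (F1, F3, M1, M2) and 0, 0, 54.1 and 302 CPM in Arc-veh (F1, F2, F3, M3), so only 2 Arc-veh wells were high. In M3, 83 transcripts came from 5 of 32 members, 56 of them from 1 nucleus with 26329 transcripts. In F3, 22 of 24 came from 1 nucleus with 18586 transcripts. C4b showed the same concentration, with 27 of 52 transcripts of M3 in a nucleus with 26329 transcripts, and 13 of 23 of F3 in 1 nucleus. The 29 Inpp5d transcripts of M3 lay in 2 members, and the 8 of F3 in 1. Lrmda was less confined in F3, with 36 transcripts in 14 of 68 members and at most 10 in 1 nucleus, while in M3 5 of 32 members held 111, 54 of them in 1 nucleus. Its log2 fold change was 3.84 (SE 0.69), and 2.00 without Arc-veh M3. In the other nuclei Lrmda was at 50.6 to 73.5 CPM in WT-veh and at 134 to 274 CPM in Arc-veh. In the other nuclei of the same wells Gfap was 3.31 to 6.28 CPM in WT-veh and 49.9 to 143 CPM in Arc-veh. The summed astrocyte markers of the members were 103 to 847 CPM in WT-veh and 320 to 2756 CPM in Arc-veh, and the microglial markers 0 to 103 and 55.6 to 393 CPM. Their part in these differences was not tested. With the 36 doublet-scored members left out, 8 genes passed in Arc-veh minus WT-veh: Slc1a2, Luc7l3, Gfap, Camk2a, Egr1, Shank1, Prex2 and Lrmda, which are named here after their values were seen. With only members at 1% or more, Luc7l3, Egr1 and Lrmda passed.

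**Figure D5:**
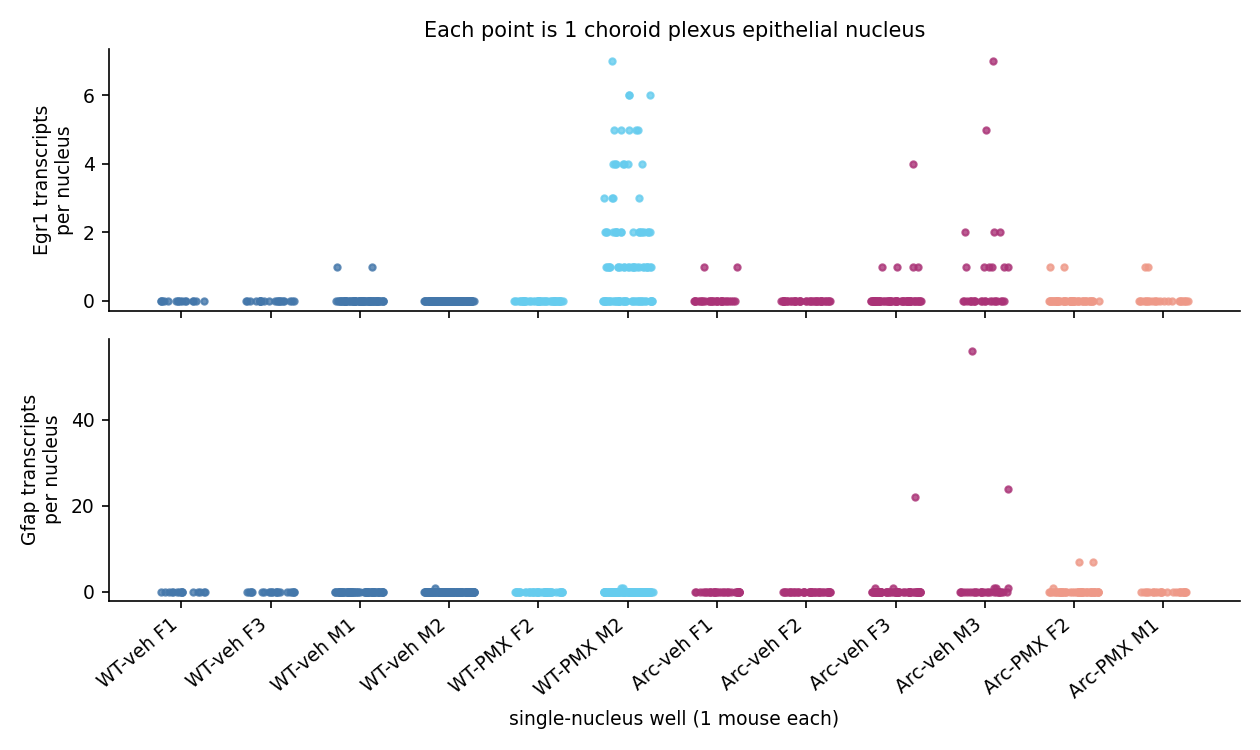
Transcripts of Egr1 (top) and Gfap (bottom) in each choroid plexus epithelial nucleus of the 12 wells with at least 5 members, coloured by group. Egr1 transcripts are spread over 64 of 110 nuclei of WT-PMX M2, while 1 nucleus holds 56 of the 83 Gfap transcripts of Arc-veh M3.

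In Arc-PMX minus Arc-veh the lowest p belonged to Gm26917, a transcript linked to ribosomal RNA. It was at 3246, 2969, 2674 and 3203 CPM in Arc-veh (F1, F2, F3, M3) and at 1721 and 927 CPM in Arc-PMX (F2, M1). The groups did not overlap, but the difference was not called (−1.18, SE 0.22, edgeR adjusted p = 0.477). The WT-veh wells were at 2564, 2303, 1406 and 1730 CPM, below every Arc-veh well. The other nuclei of the same wells were at 1935 to 2128 CPM of Gm26917 in Arc-veh and at 840 to 1174 CPM in Arc-PMX, so the gap was also seen outside the choroid plexus nuclei. In WT-veh they were at 1102 to 2005 CPM, which overlapped Arc-veh. Gm42418, of the same kind, differed by −0.75 (SE 0.22, edgeR adjusted p = 0.999). Fam19a1, Nars2 and Zscan26 completed the 5 genes with the lowest p. For WT-PMX minus WT-veh they were Egr1, Cdk8, Per1, Actb and Bnip3l, and for the contrast of both effects Egr1, Gm26917, Rn7sk, Gm42418 and Sgcz.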

How the data were processed

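Nuclei and CD11b-selected cells were barcoded by split-pool ligation in 48 first-round wells and sequenced as 7 sublibraries. The authors deposited whole-number transcript counts per barcode and gene, without normalization or a filter on barcodes, made with the Parse pipeline on mm10 (bcl2fastq is named in the submitters' notes). Gene coordinates came from GENCODE M21, which held all 55536 gene IDs. Group and sex of a well came from the deposited sample sheet. Nuclei had more than 300 and fewer than 50000 transcripts and more than 400 genes. Doublets were scored by Scrublet (scanpy 1.11.5, score above 0.25) and kept, as were nuclei with 1% or more mitochondrial transcripts.

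CPM are counts per 1000000 transcripts of the nuclei of a kind in a well. Counts were summed per well over wells with at least 5 members and compared with edgeR 4.0.16 in R 4.3.3 (TMM, filterByExpr, glmQLFit, glmQLFTest, Benjamini-Hochberg at 0.05). Groups were fitted together with sex as covariate. Members were set against all other nuclei, ependymal-like nuclei included, or against ependymal-like nuclei alone (7 cilia genes at 0.5% or more, at least 4 detected), with the well as block. Shares and depths were compared by permutation of wells (exact, or 100000 resamples for sex and for the difference of effects). P-values over wells set a difference against the spread between wells, in which mouse, dissection and barcoding cannot be told apart. Tests of members against other nuclei rest on differences within wells.

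The members, gene lists and tests were chosen with earlier results of these data known. Named were genes of the lists, the 20 (ependymal-like: 10) largest called changes each way, all genes called between groups or sexes, or else the 5 lowest p. The largest changes were ranked among genes with a mean log2 CPM of at least 6 and a count in every well of the higher kind. Some genes of the lists are counted but not reported here by name. Alternatives were other size factors, library totals, DESeq2 1.42.0, no filter, 2 groups alone, doublets out, stricter cutoffs, each well or sublibrary left out, 1 sex, and the replicate label (sex and number) as block. Well labels with the same number did not deviate together (correlations −0.282 to 0.108 over 7 pairs).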

Additional observations from a re-analysis of the deposited data

Results flagged for a closer look

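In groups of 4 wells, 8 of 64 tested values stood apart from the other wells of their group by Dixon's limit. Chance gives about 1 in 20 for freely varying values, a rate that cannot be applied here, since many of the genes had been picked for a low p between groups and 3 of the 8 values were 1 or 2 transcripts against wells at 0. In WT-veh the values were Inpp5d and Gfap in M2 (2.14 CPM each) and Egr1 in M1 (7.66 CPM), where the other 3 wells were at 0, and Sgcz in M1 (76.6 CPM). In Arc-veh, well M3 stood apart for Inpp5d (105 CPM), Lrmda (404 CPM) and, on the low side, Enpp2 (6337 CPM), and well F3 for Rn7sk (128 CPM).

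The same marker rule was met by 72 of the 3891 CD11b-selected single cells, a preparation that no comparison above used. They came from 11 of 24 single-cell wells, each pooled from 2 to 3 mice, with at most 15 in a well: 28 of 491 cells in WT-veh, 30 of 534 in WT-PMX, 7 of 1743 in Arc-veh and 7 of 1123 in Arc-PMX. Their Ttr level was 4247 CPM, with a transcript in 64 of them, against 48.6 CPM in the other single cells. Enpp2 was 6107 CPM, Slc4a5 834 CPM, Prlr 1009 CPM and Folr1 175 CPM in these cells. The microglial gene Cx3cr1 was 202 CPM in them and 1309 CPM in the other cells, and C1qa 8.77 and 389 CPM. The numbers by group were not tested. They pool single-cell wells of 2 to 765 cells, and Arc-veh F1 (765 cells) and M2 (531 cells) held 0 matching cells.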

How the results depend on the processing

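Counts of genes called depended on the settings. Without a filter on low counts, 74 genes passed in Arc-veh minus WT-veh, 12 in Arc-PMX minus Arc-veh, 23 in WT-PMX minus WT-veh, 33 in the difference of effects and 86 between sexes. With doublets left out these were 8, 1, 2, 1 and 14, with members of at least 1% they were 3, 1, 8, 2 and 10, and with only the 2 groups compared WT-PMX minus WT-veh gave 9. Leaving out 1 well gave 0 to 10 (10 without Arc-PMX F2), 0 to 0, 0 to 1, 0 to 0 and 3 to 13. The replicate block, of sex and number together, called 0 genes in each comparison between groups. With a term for each label beside the groups, the 12 wells left little power for any call, so this 0 is no check. The numbers did not pair the wells.

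Against other nuclei, 2314 genes were higher and 6435 lower (26.4% of calls higher). By library totals alone, added after seeing the data, these were 5078 and 3329 (60.4%), and the median of all genes moved from −0.49 to 0.24. Under totals the log2 fold change was above 0 for Atp13a5 (0.0405), Insr (0.52), App (0.25), Aplp2 (0.0808), Bace1 (0.17), Adam10 (0.27), Picalm (0.24), Per3 (0.26), Clock (0.10), Npas2 (0.32), Tef (0.27), Hsph1 (0.17), Lars2 (0.0692), Cmss1 (0.33) and Cdk8 (0.0523), and for Insr also with members of at least 1% (0.0102). Without a filter 3474 genes were higher than in other nuclei, and 3015 higher and 2008 lower than in ependymal-like nuclei.

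Shares changed sign for female minus male among nuclei over 1000 transcripts (−0.0282), in females alone for Arc-veh minus WT-veh (1.88) and WT-PMX minus WT-veh (0.182), and in males alone for the difference of effects (1.52), which was 0.230 without the well labelled WT-veh F2. Leaving out 1 well gave ranges of −0.460 to 0.711 (Arc-veh minus WT-veh), −1.37 to −0.555 (Arc-PMX minus Arc-veh), −1.22 to 0.0128 (WT-PMX minus WT-veh), −0.937 to 0.297 (difference) and −0.132 to 0.479 (sex). Depth ranged over 1347 to 2686, −1289 to 50.1 and −238 to 4332 transcripts, and Egr1 in WT-PMX minus WT-veh over −0.13 to 8.16. The causes were not tested. Each PMX205 group had 2 wells in the gene comparisons, and 1 well held as few as 16 members.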
